A study of Mus musculus with 9 samples.

Results

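Lateral nasal glands of Cyp2g1-null mice were compared with those of 129/Sv mice on 3 and 2 microarrays, 5 of the 9 arrays of the series. The null mice lacked the cytochrome P450 gene Cyp2g1 and were of mixed 129/Sv x C57BL/6 descent. The 129/Sv mice were wild type, as were the C57BL/6 (B6) mice on the other 4 arrays, which are used here only as a reference for strain background. All mice were male and 2 to 3 months old, and each array held RNA pooled from the glands of 10 mice, so the spread between arrays is a spread between pools. The null line carries alleles of both parent strains, so an effect of the deletion and an effect of a B6 allele elsewhere in the genome cannot be told apart by the comparison with 129/Sv alone. Values of the B6 arrays are therefore given beside many of the results. Where a gene has none, its place relative to B6 is not described here.

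The lateral nasal gland is a serous gland that empties into the nasal cavity and supplies secreted proteins to the nasal mucus, among them odorant-binding proteins, secretoglobins and antimicrobial proteins. Cytochrome P450 enzymes oxidise steroids, drugs and inhaled chemicals, and the nose holds several that are scarce in the liver. CYP2G1 is a nasal P450 known mainly from the olfactory mucosa, and its gene lies in a cluster of Cyp2 genes on chromosome 7 beside Cyp2a4, Cyp2a5, Cyp2b and Cyp2f2 genes.

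Of the 12 secretory marker genes of the gland on the array, 10 passed the filter on low values. Obp2a, an odorant-binding protein, had signals of 162222 and 131961 on the 129/Sv arrays and 129905, 145851 and 164650.1 on the null arrays. No gene of the skeletal muscle list was measured, and the olfactory neuron marker Omp read 607.2 to 1869.7 on the 5 arrays in 1 of its 2 probe sets. In bulk glands, fewer cells of a type and less RNA per cell cannot be told apart. Every array had been scaled to nearly the same trimmed mean, 1499.4 to 1499.9 units, and array medians were 522.7 to 552.8. The correlation of log2 signals was 0.9682 between the 129/Sv arrays, 0.9683 to 0.9715 among the null arrays and 0.9457 to 0.9543 between the groups.

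A probe set is a group of probes designed against a transcript, some of which match several transcripts or genes, and 12575 of 22626 probe sets exceeded the array median on at least 2 arrays and were tested. Signals were used as log2(signal + 16), so log2 fold changes of dim probe sets are understated. A probe set was called when its adjusted p (limma, Benjamini-Hochberg over all 12575) was below 0.05. In all, 256 probe sets were called, 2.04% of those tested. Of these 177 (1.41%) were higher in the null glands and 79 (0.628%) were lower, and the median absolute log2 fold change of the called probe sets was 1.01. With array medians made equal, the split was 139 higher and 111 lower, or 55.6% higher in place of 69.1%. The number called was 128 without 129/Sv array 2, 145 without null array 1 and 151 without null array 3. The called probe sets with 1 symbol named 195 genes, 135 of them higher and 65 lower, with 5 genes called in both directions by different probe sets. At least 4-fold differences were called for 21 genes that rose and 6 that fell. In the same fit B6 differed from 129/Sv in 653 probe sets (5.19%) and the null from B6 in 274 (2.18%); these comparisons share arrays with the one described here. With 3 arrays against 2, an exact permutation test of a single gene cannot give a two-sided p below 0.2, so all calls rest on the fit across probe sets, in which the estimated spread followed a trend with the signal level.

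**Figure D1:**
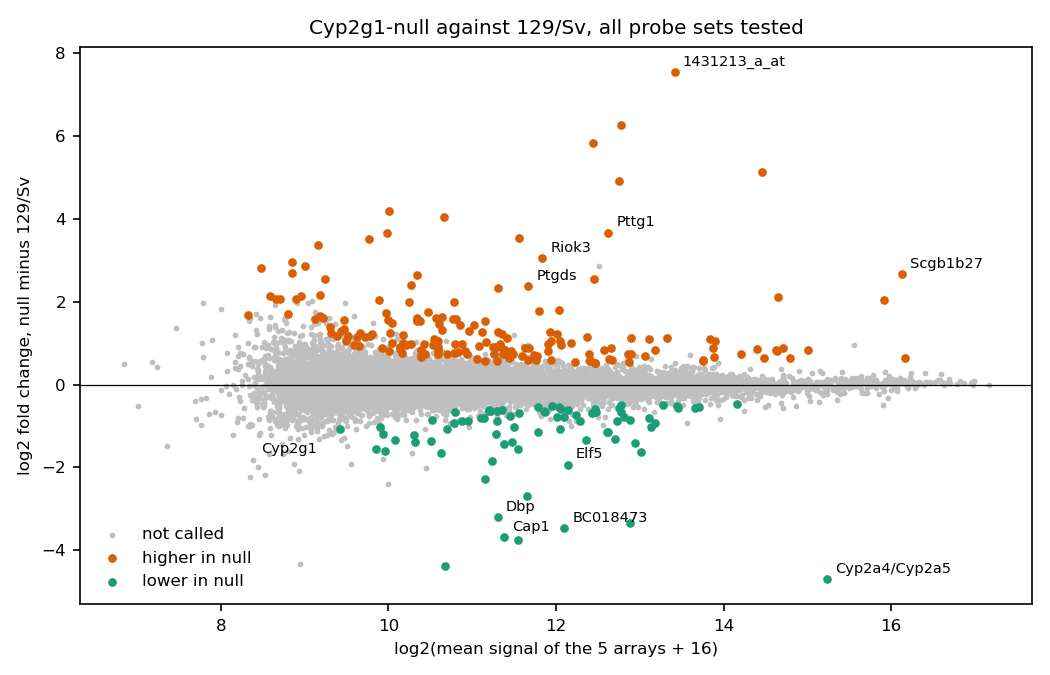
Log2 fold change of null over 129/Sv glands (y axis) against the log2 of the mean signal of the 5 arrays plus 16 (x axis), 1 point for each of the 12575 probe sets tested. Orange and green points are the 177 higher and 79 lower probe sets called; Cyp2a4/Cyp2a5 is the lowest point and Cyp2g1 lies among the grey, uncalled points.

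The deleted gene was lower in null glands in every array, but the difference from 129/Sv did not pass the test. The Cyp2g1 probe set read 207.5 and 981.2 on the 129/Sv arrays and 55.7, 140.6 and 201.1 on the null arrays, against 5917, 748.2, 2007 and 2799 on the B6 arrays. All null arrays lay below both 129/Sv arrays, but the highest null array (201.1) was just under the lower 129/Sv array (207.5). The log2 fold change was -1.81 (SE 0.741, 95% confidence interval -3.40 to -0.22) and did not pass the test (adjusted p = 0.325). Against B6 the log2 fold change was -4.07 (adjusted p = 0.00268). The sources used here do not say whether the probes lie inside the deleted region.

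The largest decrease was that of the joint probe set of Cyp2a4 and Cyp2a5, the steroid 15-alpha-hydroxylase and coumarin 7-hydroxylase genes of the same cluster. Its signals were 81184 and 100182 on the 129/Sv arrays and 2931, 2755 and 5249 on the null arrays. Every null array was far below both 129/Sv arrays, and also below all 4 B6 arrays (66851, 37581, 67828 and 90653). The signal was 25.7-fold lower in null than in 129/Sv glands, a log2 fold change of -4.69 (SE 0.304, adjusted p = 5.25e-07), and the difference from B6 was -4.16 (adjusted p = 9.66e-07). The call held in each of the 9 fits that left out an array.

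This probe set is annotated to both genes, so the level cannot be divided between them. Their promoters show how close the copies are. The RefSeq windows of 300 bases around each start (GRCm38.p6, 250 bases before and 50 after) were 98.3% identical over 299 aligned bases, and the 5 differing bases are in capitals. The Cyp2a4 window is chr7:26306942-26307241 and the Cyp2a5 window chr7:26835089-26835388, both on the plus strand.
Cyp2a4: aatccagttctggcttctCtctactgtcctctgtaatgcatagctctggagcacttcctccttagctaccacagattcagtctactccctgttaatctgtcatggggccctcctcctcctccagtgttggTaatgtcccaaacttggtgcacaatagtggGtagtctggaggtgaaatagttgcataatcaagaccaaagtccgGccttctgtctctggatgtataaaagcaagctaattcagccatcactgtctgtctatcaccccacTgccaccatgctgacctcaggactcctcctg
Cyp2a5: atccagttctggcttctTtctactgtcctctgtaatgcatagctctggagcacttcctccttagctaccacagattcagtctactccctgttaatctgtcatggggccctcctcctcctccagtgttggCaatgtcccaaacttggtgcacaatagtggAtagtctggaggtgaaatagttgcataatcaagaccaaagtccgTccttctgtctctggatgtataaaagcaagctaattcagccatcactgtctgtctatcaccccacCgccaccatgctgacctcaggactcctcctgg

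Among the genes next to Cyp2g1 the differences from 129/Sv were smaller. Of the 5 genes measured in the Cyp2 cluster list, 2 fell and none rose, where 0.868% of all 7487 genes measured fell. The list median was -0.60, against 0.01 for all genes measured. Cyp2b19, a P450 known from skin, had signals of 9401 and 9368 in 129/Sv and 4017, 4435 and 4327 in null glands, a log2 fold change of -1.14 (SE 0.215, adjusted p = 0.0114). The null arrays lay well below 129/Sv but in and just above the range of the B6 arrays (4192, 2161, 4059.8 and 3222), from which they did not pass as different (0.36, adjusted p = 0.375).

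Cyp2b10, a drug-inducible P450, fell in 1 of its 3 probe sets. That probe set read 5849.8 and 10934 on the 129/Sv arrays and 3098, 3074 and 3331 on the null arrays, with a log2 fold change of -1.33 (SE 0.272, adjusted p = 0.0198). The remaining pair gave -0.60 (adjusted p = 0.152) and -0.82 (adjusted p = 0.0906), so all 3 had values of 1 sign and only 1 was called. Cyp2f2, an abundant airway P450 that activates naphthalene, read 72589 and 74865 in 129/Sv and 47148, 48831 and 63668 in null glands, and its -0.48 missed the threshold (adjusted p = 0.0896). Of the 8 measured genes on either side of Cyp2g1, 16 in all, Cyp2b19 and Cyp2b10 were called against 129/Sv. Of all genes measured 2.6% were called. Among the same 16 genes 2 were called between B6 and 129/Sv, and 0 between null and B6. The shares of all probe sets tested were 5.19% and 2.18%. These counts of neighbours leave out the joint Cyp2a4/Cyp2a5 probe set, which has more than 1 symbol and was called against both strains. Cyp2f2 passed the threshold with quantile normalization, with equal array medians or without null array 3. It also passed with a block for replicate number (the replicate block). Cyp2b19 was no longer called without 129/Sv array 1 (adjusted p = 0.0841) or 129/Sv array 2 (0.107) or null array 1 (0.0528), nor without the trend; over 23 alternatives adjusted p was 7.48e-05 to 0.107. Cyp2b10 was no longer called without any 1 of 129/Sv array 2 and null arrays 1, 2 and 3 (adjusted p from 0.0587 to 0.328), nor with its probe sets averaged or without the trend; over 22 alternatives adjusted p was 0.00248 to 0.328.

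Several genes lay outside the range of both wild-type strains in the null glands. Ptgds, which makes prostaglandin D2 and is a lipocalin carrier, read 680.4 and 1175 on the 129/Sv arrays and 4007, 6063 and 4278 on the null arrays. All null arrays exceeded both 129/Sv arrays and all B6 arrays (1257, 604.4, 632.2 and 1183), and the rise was 5.18-fold over 129/Sv (log2 2.37, SE 0.324, adjusted p = 0.000819). The other probe set of Ptgds rose by 2.65 (adjusted p = 0.00455), and against B6 the pair of probe sets gave 2.41 and 2.46 (adjusted p = 0.000243 and 0.00238). Of the other 8 measured genes of the prostaglandin list none was called, with Hpgd, which degrades prostaglandins, at -0.16 and Ptgr1, a prostaglandin reductase, at -0.48. The Ptgds probe set at 2.65 was no longer called without 129/Sv array 1 (adjusted p = 0.0679); over 22 alternatives adjusted p was 0.00138 to 0.0679.

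Sphk1, the kinase that makes sphingosine 1-phosphate, had signals of 338.6 and 310.9 in 129/Sv and 2230.1, 1844 and 1397 in null glands. The null arrays were all higher than any wild-type array of either strain, the B6 arrays reading 972.1, 719.3, 808 and 393. Its log2 fold change was 2.41 over 129/Sv (SE 0.32, adjusted p = 0.000699) and 1.36 over B6 (adjusted p = 0.0147). It was the only 1 of 15 measured genes of the sphingosine phosphate list called, and the list median was 0.15. Of all genes measured 2.6% were called. Asah1, acid ceramidase, and Plpp1, a lipid phosphate phosphatase, gave 0.43 and -0.26 (adjusted p = 0.241 and 0.466).

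S100a10, the partner protein of annexin A2, rose in both of its probe sets. The first read 565.7 and 636.8 on the 129/Sv arrays and 1702, 1746 and 1901 on the null arrays, with the B6 arrays between them (991.9, 1215, 1183 and 1165). The log2 fold changes were 1.54 and 1.02 over 129/Sv (adjusted p = 9.75e-05 and 0.00151) and 0.64 and 0.48 over B6 (adjusted p = 0.0249 and 0.0661). Ramp1, an accessory protein of the CGRP receptor, rose by 0.74 over 129/Sv (adjusted p = 0.0341) and 0.58 over B6 (adjusted p = 0.0467). Ramp1 was no longer called without any 1 of 129/Sv array 2 and null arrays 1, 2 and 3 (adjusted p from 0.0543 to 0.426), nor without the trend; over 23 alternatives adjusted p was 0.0182 to 0.426.

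Dbp also fell below both strains, in each of its probe sets. Dbp, a clock-controlled transcription factor, read 4362 and 6508 on the 129/Sv arrays and 568.3, 537.5 and 603.1 on the null arrays. The null arrays were close together and below all 4 B6 arrays (3123, 1750.5, 1102 and 3743). The decrease was 9.14-fold from 129/Sv (log2 -3.19, SE 0.379, adjusted p = 0.00026) and -3.34 (adjusted p = 0.000819) in its other probe set. Against B6 the values were -1.91 and -1.96 (adjusted p = 0.00438 and 0.0136). The time of day of gland collection did not enter the fit. Its part in the differences of Dbp and other clock genes was not tested.

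**Figure D2:**
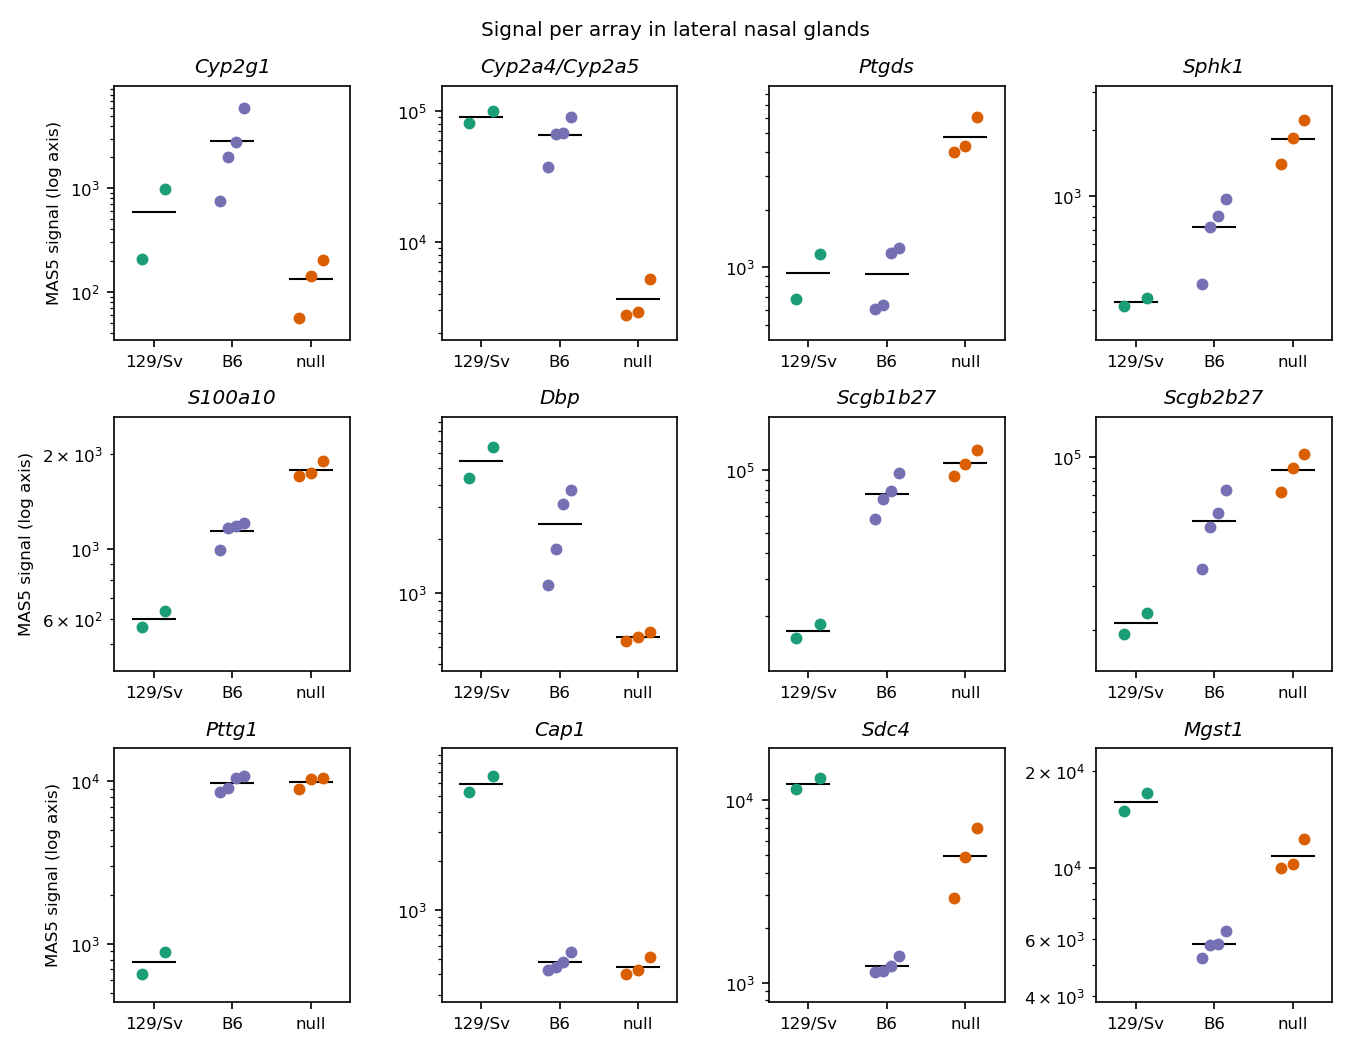
Signal of each array (points, log axis) for 12 probe sets in 129/Sv (2 arrays), B6 (4) and Cyp2g1-null (3) glands, with a line at each group's mean. The null points of Cyp2a4/Cyp2a5 and Dbp lie below all wild-type points and those of Ptgds, Sphk1 and S100a10 above them, those of Pttg1 and Cap1 lie at the B6 level, and those of Sdc4 and Mgst1 lie between the strains.

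Dbp belongs to the PAR bZIP factors, which, with the repressor Nfil3, carry the circadian rhythm from the core clock to metabolic genes through D-box elements. Of the 9 measured genes of this list 3 fell and 1 rose, and the list median was -0.72. Of all 7487 genes measured 135 rose (1.80%), 65 fell (0.868%) and 3821 (51.0%) had positive values. Usp2, a ubiquitin protease and clock output gene, read 3144 and 6999.8 in 129/Sv and 1589.9, 1525 and 1659 in null glands (-1.55, SE 0.315, adjusted p = 0.0194). Tef, another PAR bZIP factor, had signals of 7429.6 and 11205 in 129/Sv and 4438, 3817 and 4219.7 in null glands (-1.13, SE 0.205, adjusted p = 0.00873). A second Tef probe set gave -1.61 and a second Usp2 probe set -1.18, while the third of Tef was not called (-1.01, adjusted p = 0.124). In each called probe set of both genes the null arrays lay below both 129/Sv arrays, and 129/Sv array 2 was the highest of the 5. Nfil3 rose, from 693.6 and 911.3 in 129/Sv to 2347, 2879.7 and 2026 in null glands (1.57, SE 0.289, adjusted p = 0.00966). Usp2, Tef and Nfil3 did not pass as different between null and B6 glands (-0.34, -0.46 and 0.13). The Usp2 probe set at -1.55 was no longer called without any 1 of 129/Sv array 2 and null arrays 1, 2 and 3 (adjusted p from 0.0596 to 0.324), nor without the trend; over 22 alternatives adjusted p was 0.0043 to 0.324. The Usp2 probe set at -1.18 was no longer called without any 1 of 129/Sv array 2, B6 array 3 and null arrays 1, 2 and 3 (adjusted p from 0.0648 to 0.556), nor with no filter or without the trend; over 22 alternatives adjusted p was 0.0114 to 0.556. The Tef probe set at -1.13 was no longer called without 129/Sv array 2 (adjusted p = 0.188), nor without the trend; over 23 alternatives adjusted p was 0.00198 to 0.188. The Tef probe set at -1.61 was no longer called without any 1 of 129/Sv arrays 1 and 2, B6 array 3 and null arrays 1, 2 and 3 (adjusted p from 0.0664 to 0.43), nor with quantile normalization, with pseudocount 1, with no filter or without the trend; over 20 alternatives adjusted p was 0.00561 to 0.43. Nfil3 was no longer called without 129/Sv array 1 (adjusted p = 0.11), nor without the trend; over 23 alternatives adjusted p was 0.000607 to 0.11.

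Of 13 measured core clock genes 1 rose and 1 fell, with a list median of -0.18. Of all genes measured 1.80% rose and 0.868% fell. Nr1d2, the nuclear receptor REV-ERB-beta that represses Bmal1, read 12469 and 13351 on the 129/Sv arrays and 6863, 6338 and 5869.6 on the null arrays, a fall to below both and below all B6 arrays (-1.02, SE 0.134, adjusted p = 0.000622). Its other probe set gave -0.82 and was not called (adjusted p = 0.187). Npas2, a partner of BMAL1 and paralog of CLOCK, read 94.8 and 217.9 in 129/Sv and 652.7, 650.7 and 682.2 in null glands (2.07, SE 0.421, adjusted p = 0.0193). Per2, a core repressor, read 396.6 and 1304 in 129/Sv and 266.2, 108.5 and 192.5 in null glands, all null arrays being lower, but its -1.93 was not called (adjusted p = 0.255). Hlf, the remaining PAR bZIP factor, gave -0.85 and Bhlhe40, a clock repressor, -0.64 (adjusted p = 0.212 and 0.087). The summed signal of the PAR bZIP and clock output list was 30596 to 46086 in 129/Sv, 16376 to 29691 in B6 and 14319 to 15448 in null glands. Npas2 was no longer called without any 1 of 129/Sv array 1 and null arrays 1, 2 and 3 (adjusted p from 0.0711 to 0.142); over 22 alternatives adjusted p was 0.0103 to 0.142.

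The promoters of the called clock genes were searched on both strands for the E-box CACGTG, bound by the core clock activators, and for the D-box TTATGNAA. Of 32851 RefSeq promoter windows 7.15% held the E-box and 3.38% the D-box. Both windows of Tef held 1 E-box each, shown in capitals, and neither motif occurred in the windows of Dbp, Usp2, Nfil3, Nr1d2 or Npas2. The windows are chr15:81802423-81802722 and chr15:81811164-81811463 (GRCm38.p6, plus strand).
Tef, upstream start: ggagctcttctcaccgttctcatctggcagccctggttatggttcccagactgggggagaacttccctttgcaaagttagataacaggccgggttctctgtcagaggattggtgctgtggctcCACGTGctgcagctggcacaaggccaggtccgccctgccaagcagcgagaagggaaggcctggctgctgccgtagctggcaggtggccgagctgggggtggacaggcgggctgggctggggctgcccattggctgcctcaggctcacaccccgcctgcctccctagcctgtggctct
Tef, downstream start: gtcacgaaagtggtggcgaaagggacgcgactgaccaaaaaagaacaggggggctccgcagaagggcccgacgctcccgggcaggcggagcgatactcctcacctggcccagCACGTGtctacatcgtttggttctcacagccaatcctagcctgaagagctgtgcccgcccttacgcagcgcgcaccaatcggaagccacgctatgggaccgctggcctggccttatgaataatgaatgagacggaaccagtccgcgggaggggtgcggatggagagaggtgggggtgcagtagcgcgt

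Secretoglobins, small secreted proteins of which some are the androgen-binding proteins of mouse saliva and tears, were higher in the null glands. Of 6 such genes on the array 3 passed the filter on low values, and all 3 rose, with a median of 2.32. Of all genes measured 1.80% rose. Scgb1b27 read 18404 and 15679.6 on the 129/Sv arrays and 106252, 94093 and 124356 on the null arrays (6.32-fold, log2 2.66, SE 0.169, adjusted p = 4.27e-07). Scgb2b27, which encodes a partner subunit, read 19196 and 23335 in 129/Sv and 90555, 71849.8 and 102606 in null glands (2.04, SE 0.229, adjusted p = 0.00015). Every null array was far above both 129/Sv arrays for each gene. Scgb1b2 rose by 2.32 (SE 0.223, adjusted p = 3.86e-05).

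The B6 arrays were also above 129/Sv for each secretoglobin, by 2.15, 1.33 and 2.15 for Scgb1b27, Scgb2b27 and Scgb1b2. Differences between null and B6 were 0.51, 0.72 and 0.17, and none was called (adjusted p = 0.0852, 0.0722 and 0.718). Secretoglobin genes form a family of close copies on chromosome 7, so which copies these probe sets read is uncertain. All 3 calls held in each fit that left out an array.

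Of 28 measured genes of mucosal defence and gland secretion 3 rose and none fell, with a list median of 0.17, where 1.80% of all genes measured rose. Reg3g, an antibacterial lectin, read 22972 and 21497 in 129/Sv and 37161, 45204 and 37684 in null glands (0.84, SE 0.112, adjusted p = 0.000696). Gp2, a glycoprotein that binds bacterial fimbriae, read 6218 and 4715 in 129/Sv and 9548, 8991 and 8434 in null glands, above both 129/Sv arrays and all B6 arrays (5697, 4739, 4880.3 and 5238). Its log2 fold change was 0.73 over 129/Sv and 0.81 over B6 (adjusted p = 0.00891 and 0.00124). Tff1, a trefoil peptide of mucus, rose by 0.90 (adjusted p = 0.0436), with null arrays above both 129/Sv arrays. With the replicate block Tff1 was not called. Tff1 was no longer called without any 1 of 129/Sv arrays 1 and 2, B6 arrays 3 and 4 and null arrays 2 and 3 (adjusted p from 0.0549 to 0.227), nor with quantile normalization, with equal array medians, with no filter or without the trend; over 22 alternatives adjusted p was 0.0223 to 0.227.

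Car6, a secreted carbonic anhydrase, spread widely and was not called. It read 10385 and 66481 on the 129/Sv arrays and 64428, 29312 and 70058 on the null arrays, so the groups overlapped (adjusted p = 0.831). On the B6 arrays its signals were 387.5, 593.7, 8018 and 7401. Mucl2, a mucin-like protein, fell from 13049.5 and 1057 in 129/Sv to 204.5, 314.2 and 282 in null glands (-3.75, SE 0.776, adjusted p = 0.0211). The 129/Sv arrays differed widely in Mucl2, while the null arrays lay within the B6 range (160.5, 491.3, 239.9 and 607.6). Gp2 was no longer called without 129/Sv array 2 (adjusted p = 0.184) or null array 1 (0.0503), nor without the trend; over 22 alternatives adjusted p was 0.00357 to 0.184. Mucl2 was no longer called without any 1 of 129/Sv array 1 and null arrays 1, 2 and 3 (adjusted p from 0.0544 to 0.278), nor without the trend; over 21 alternatives adjusted p was 0.000338 to 0.278.

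Odorant-binding proteins and major urinary proteins are lipocalins that carry small volatile ligands. Of the 6 genes measured in this list only Ptgds was called, where 2.6% of all genes measured were called. Obp2a and Obp1a gave log2 fold changes of 0.00 and -0.01, with 95% confidence intervals of -0.25 to 0.24 and -0.23 to 0.21. Lcn3 read 1743 and 2088 in 129/Sv and 939.3, 1653 and 1252 in null glands, which lay below both, and was not called (-0.60, adjusted p = 0.213).

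Among enzymes of aldehyde and alcohol oxidation 23 genes were measured, of which 1 rose and 1 fell. The list median was -0.02, and of all genes measured 1.80% rose and 0.868% fell. Aldh2, the mitochondrial enzyme that clears acetaldehyde, read 9967 and 10016 in 129/Sv and 17485, 17835 and 19845 in null glands, with no overlap (0.88, SE 0.111, adjusted p = 0.000445). The difference from B6 was -0.01 (adjusted p = 0.987), and the other probe sets of Aldh2 were not called (-0.11 and -0.08). Adh1, a class I alcohol dehydrogenase that also oxidises retinol, read 5026 and 6053 in 129/Sv and 3376, 3447 and 2751 in null glands, against 10607, 7119, 8227 and 8759 in B6. The null arrays were the lowest of all 9, with log2 fold changes of -0.79 from 129/Sv (adjusted p = 0.0193) and -1.43 from B6 (adjusted p = 6.33e-05). With the replicate block the Adh1 call against 129/Sv was lost. Adh1 was no longer called without 129/Sv array 2 (adjusted p = 0.253) or null array 3 (0.0835), nor without the trend; over 23 alternatives adjusted p was 0.00533 to 0.253.

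Of 36 measured enzymes of glutathione and thioredoxin metabolism 3 rose and 1 fell, and the list median was 0.03. Of all genes measured 1.80% rose and 0.868% fell. The rises were those of Gsto1, Gsr and Prdx2. Gsto1, an omega glutathione transferase, rose in both probe sets, from 2057 and 2514 in 129/Sv to 5743, 5431 and 4780.3 in null glands in the first (1.22, SE 0.13, adjusted p = 0.000109) and by 0.88 in the other. Mgst1, a membrane glutathione transferase, read 17125 and 15063 in 129/Sv, 10276, 12275 and 10030.2 in null and 6380.1, 5267, 5814 and 5765 in B6 glands. The null arrays lay between the strains without overlap, -0.57 from 129/Sv (adjusted p = 0.0247) and 0.90 from B6 (adjusted p = 0.000243). Gsr, glutathione reductase, rose by 0.79 in 1 of 2 probe sets (adjusted p = 0.036). With the replicate block Mgst1 was not called. Mgst1 was no longer called without any 1 of 129/Sv arrays 1 and 2 and null arrays 1 and 3 (adjusted p from 0.0764 to 0.208), nor without the trend; over 22 alternatives adjusted p was 0.00992 to 0.208. Gsr was no longer called without any 1 of 129/Sv array 2, B6 array 3 and null arrays 1 and 2 (adjusted p from 0.0522 to 0.399), nor with equal array medians, with no filter, with its probe sets averaged or without the trend; over 23 alternatives adjusted p was 0.02 to 0.399. The Gsto1 probe set at 0.88 was no longer called without any 1 of 129/Sv arrays 1 and 2 and null arrays 1 and 3 (adjusted p from 0.0935 to 0.2), nor without the trend; over 21 alternatives adjusted p was 0.0013 to 0.2.

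The largest rises among named genes lay on the side of the B6 level. Phgdh, the entry enzyme of serine synthesis, read 518.2 and 246 on the 129/Sv arrays and 11188, 10923 and 11543 on the null arrays in 1 probe set (30-fold, log2 4.91, SE 0.215, adjusted p = 5.87e-09). The remaining 3 probe sets of Phgdh gave 0.42, 0.17 and -0.18 and were not called. Rpgrip1, a ciliary scaffold of photoreceptors, rose from 158.2 and 29 in 129/Sv to 1918, 1283 and 1693 in null glands (4.20, adjusted p = 2.51e-05). Pttg1, securin, which holds sister chromatids together until anaphase, rose in all 3 probe sets, from 652.9 and 896.6 in 129/Sv to 10509, 10341 and 8989 in null glands in the first. Its log2 fold changes were 3.67, 4.05 and 2.81 (adjusted p = 2.91e-09, 1.1e-06 and 0.009).

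The B6 arrays read 10586, 13607, 12493 and 12741 for that Phgdh probe set, 3515, 3174, 3351 and 3153 for Rpgrip1 and 10724, 8629, 9089.7 and 10545 for Pttg1. The null arrays of Rpgrip1 lay below all B6 arrays, and those of Phgdh and Pttg1 overlapped them. Null and B6 did not pass as different for any of the 3 genes (-0.13, -1.03 and 0.03, with adjusted p of 0.782, 0.137 and 0.94). Rab6b, a Golgi GTPase of neurons, and Ghitm, a mitochondrial inner membrane protein, rose by 2.87 and 2.55 (adjusted p = 0.00246 and 7.94e-05). For Ghitm that was 1 of 2 probe sets, the other giving 0.53 (adjusted p = 0.0769). In the called Rab6b and Ghitm probe sets the null arrays lay below all B6 arrays. These differences from B6 were not called (-0.67 and -0.21, adjusted p = 0.438 and 0.711). For Ndufs5, a complex I subunit, the null arrays overlapped the B6 arrays (1.13 over 129/Sv, adjusted p = 3.64e-05, and 0.01 against B6). The Pttg1 probe set at 2.81 was no longer called without null array 3 (adjusted p = 0.0671); over 21 alternatives adjusted p was 1.42e-07 to 0.0671.

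Decreases to the B6 level were led by Cap1, an actin-binding protein that recycles cofilin. It read 6621 and 5271 in 129/Sv, 402.1, 423.6 and 512.9 in null and 424.2, 478.9, 441.1 and 550.0 in B6 glands, with log2 fold changes of -3.69 and -4.38 in its probe sets (adjusted p = 1.22e-07 and 1.64e-05). Smpdl3b, a membrane lipid phosphodiesterase, fell from 5536 and 7482 in 129/Sv to 1227, 940.3 and 815.5 in null glands (-2.69, SE 0.209, adjusted p = 3.43e-06). Pam, which amidates peptide hormones, fell from 4905 and 3742 in 129/Sv to 987.4, 958.1 and 687.4 in null glands (-2.29, SE 0.246, adjusted p = 0.000111). No null array of these genes reached a 129/Sv array, and none passed as different from B6. Alad, which condenses aminolevulinate in haem synthesis, fell by 1.39 (adjusted p = 0.000352), and Elovl5, a fatty acid elongase, by 0.78 in 1 of 2 probe sets (adjusted p = 0.00461). Elovl5 was no longer called without 129/Sv array 2 (adjusted p = 0.109), nor with its probe sets averaged; over 23 alternatives adjusted p was 0.00227 to 0.109.

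Another group of genes had null levels between those of the strains and passed against each of them. BC018473, a gene of unknown function, read 4671 and 14888 in 129/Sv, 667.4, 842.2 and 717.8 in null and 29, 56.8, 33.2 and 34.2 in B6 glands. The null was lower than 129/Sv by 3.47 on the log2 scale and higher than B6 by 3.82 (adjusted p = 0.000819 and 0.000153). Fbp1, the gluconeogenic fructose bisphosphatase, read 1959.8 and 2613, then 728.3, 1105 and 813.8, then 379.3, 483.3, 410.6 and 410.6 in the same order, with -1.36 against 129/Sv and 1.02 against B6 (adjusted p = 0.00543 and 0.0121).

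Lbp, the lipopolysaccharide-binding protein, gave -0.77 against 129/Sv and 0.85 against B6 (adjusted p = 0.0259 and 0.00368). Gas5, a long non-coding RNA that hosts small nucleolar RNAs, had the opposite order. It read 2388 and 1833 in 129/Sv, 5408, 5109 and 4600.2 in null and 8980.2, 8865, 9393 and 9786 in B6 glands, 1.26 over 129/Sv and -0.88 against B6 (adjusted p = 7.26e-05 and 0.000505). The other Gas5 probe sets gave 0.70 (adjusted p = 0.0031), 0.86 and 0.75 over 129/Sv, of which only the first was called. Hspb8, a small heat shock protein, rose over 129/Sv in 2 of 3 probe sets, by 1.74, 0.99 and, uncalled, 0.77 (adjusted p = 0.00694, 0.0228 and 0.149). Against B6 these gave 0.35, -0.80 and -0.59 (adjusted p = 0.576, 0.0274 and 0.167), so its place relative to B6 differed between probe sets. BC018473 was no longer called without 129/Sv array 2 (adjusted p = 0.229); over 22 alternatives adjusted p was 0.000187 to 0.229. Fbp1 was no longer called without 129/Sv array 2 (adjusted p = 0.171); over 23 alternatives adjusted p was 0.00317 to 0.171. Lbp was no longer called without any 1 of 129/Sv arrays 1 and 2 and null arrays 1 and 3 (adjusted p from 0.0771 to 0.203), nor without the trend; over 23 alternatives adjusted p was 0.0122 to 0.203. The Hspb8 probe set at 1.74 was no longer called without 129/Sv array 1 (adjusted p = 0.103), nor without the trend; over 21 alternatives adjusted p was 0.00357 to 0.103. The Hspb8 probe set at 0.99 was no longer called without any 1 of 129/Sv arrays 1 and 2 and null arrays 1, 2 and 3 (adjusted p from 0.0569 to 0.203), nor without the trend; over 23 alternatives adjusted p was 0.00378 to 0.203. The Gas5 probe set at 0.70 was no longer called without 129/Sv array 2 (adjusted p = 0.0714); over 22 alternatives adjusted p was 0.00133 to 0.0714.

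The largest rise of all was in a probe set with no gene symbol in the annotation, named here after its value was seen. It read 82.3 and 81.2 on the 129/Sv arrays, 17459.7, 17341 and 19583 on the null arrays and 8493, 9533, 9570.2 and 12168 on the B6 arrays. The difference between null and 129/Sv was 7.53 on the log2 scale (SE 0.143, adjusted p = 4.13e-13). Of the 20 called probe sets with no symbol, the next largest rises were 6.27, 5.83 and 5.12. Others fell, the largest fall being -1.65. In these rises the 129/Sv signals were far below the null and B6 signals. The probe set at 5.12 still read 1411.5 and 764.9 on the 129/Sv arrays, above the array medians of 532.5 and 522.7.

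Probe sets of 1 gene did not always move together. Of the 195 genes called 84 had 1 tested probe set. Of the other 111, another probe set was called the same way for 19, the opposite way for 5, and no other was called for 87. In 70 of these 87 the median of the other probe sets lay on the same side of 0 as the called one. Riok3, an atypical kinase, read 599.5 and 730.8 in 129/Sv and 5399, 5368 and 6144 in null glands in 1 probe set (3.06, adjusted p = 5.81e-09), but 7086 and 7517 in 129/Sv and 4761, 4364 and 4708 in null glands in another (-0.66, adjusted p = 0.00316). Ptp4a2, a protein tyrosine phosphatase, gave -1.64 and 0.57 (adjusted p = 1.06e-06 and 0.0257).

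Sdc4, the cell-surface proteoglycan syndecan 4, gave -1.41 in 1 probe set, with null arrays at 2887, 7013 and 4862 between 129/Sv at 13126 and 11444 and B6 at 1158, 1142, 1397 and 1233, and 1.00 in the other (adjusted p = 0.00953 and 0.0202). Rgs5, a G-protein regulator of pericytes, gave -0.47 and 1.53 (adjusted p = 0.0467 and 0.000819), and Rbm39, a splicing factor, -0.67 and 1.56 (adjusted p = 0.0443 and 0.00177). The remaining probe sets of Riok3, Ptp4a2, Rgs5 and Rbm39 were not called. For these 5 genes no direction of the gene as a whole can be given. The Riok3 probe set at -0.66 was no longer called without 129/Sv array 2 (adjusted p = 0.0632); over 21 alternatives adjusted p was 0.0013 to 0.0632. The Ptp4a2 probe set at 0.57 was no longer called without 129/Sv array 2 (adjusted p = 0.372) or null array 1 (0.0701) or null array 3 (0.111), nor without the trend; over 23 alternatives adjusted p was 0.00707 to 0.372. The Sdc4 probe set at -1.41 was no longer called without 129/Sv array 1 (adjusted p = 0.0988) or 129/Sv array 2 (0.065), nor with its probe sets averaged or without the trend; over 22 alternatives adjusted p was 0.000815 to 0.645. The Sdc4 probe set at 1.00 was no longer called without 129/Sv array 2 (adjusted p = 0.263) or null array 1 (0.0875) or null array 3 (0.0505), nor with its probe sets averaged or without the trend; over 22 alternatives adjusted p was 0.0135 to 0.645. The Rgs5 probe set at -0.47 was no longer called without any 1 of 129/Sv arrays 1 and 2, B6 arrays 2, 3 and 4 and null arrays 1 and 2 (adjusted p from 0.0581 to 0.306), nor with no filter, with its probe sets averaged, without the trend or in the fit of the 5 arrays compared; over 23 alternatives adjusted p was 0.02 to 0.976. The Rbm39 probe set at -0.67 was no longer called without any 1 of 129/Sv arrays 1 and 2, B6 array 2 and null arrays 1, 2 and 3 (adjusted p from 0.0542 to 0.419), nor with quantile normalization, with no filter, with its probe sets averaged or without the trend; over 22 alternatives adjusted p was 0.0147 to 0.545.

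In other genes 1 probe set differed and another did not. Elf5, a transcription factor of secretory and luminal epithelium, read 8980.2 and 7223 in 129/Sv and 2352, 1931 and 2027 in null glands in 1 probe set (-1.93, adjusted p = 9.04e-05), and 26059 and 26029 in 129/Sv and 24829.7, 28156 and 28451 in null glands in the other (0.06, adjusted p = 0.891). Prdx2, a cytosolic peroxiredoxin, gave 3.67 in 1 probe set and 0.05 in another. Ywhaz, a 14-3-3 protein, fell by 1.84 in 1 of 7 probe sets (adjusted p = 2.08e-05), the others giving -0.39 to -0.07. With probe sets averaged, Ywhaz was not called, nor was Aldh2. Ptgds, Dbp, Usp2, Pttg1 and Cap1 were called the same way in every tested probe set.

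**Figure D3:**
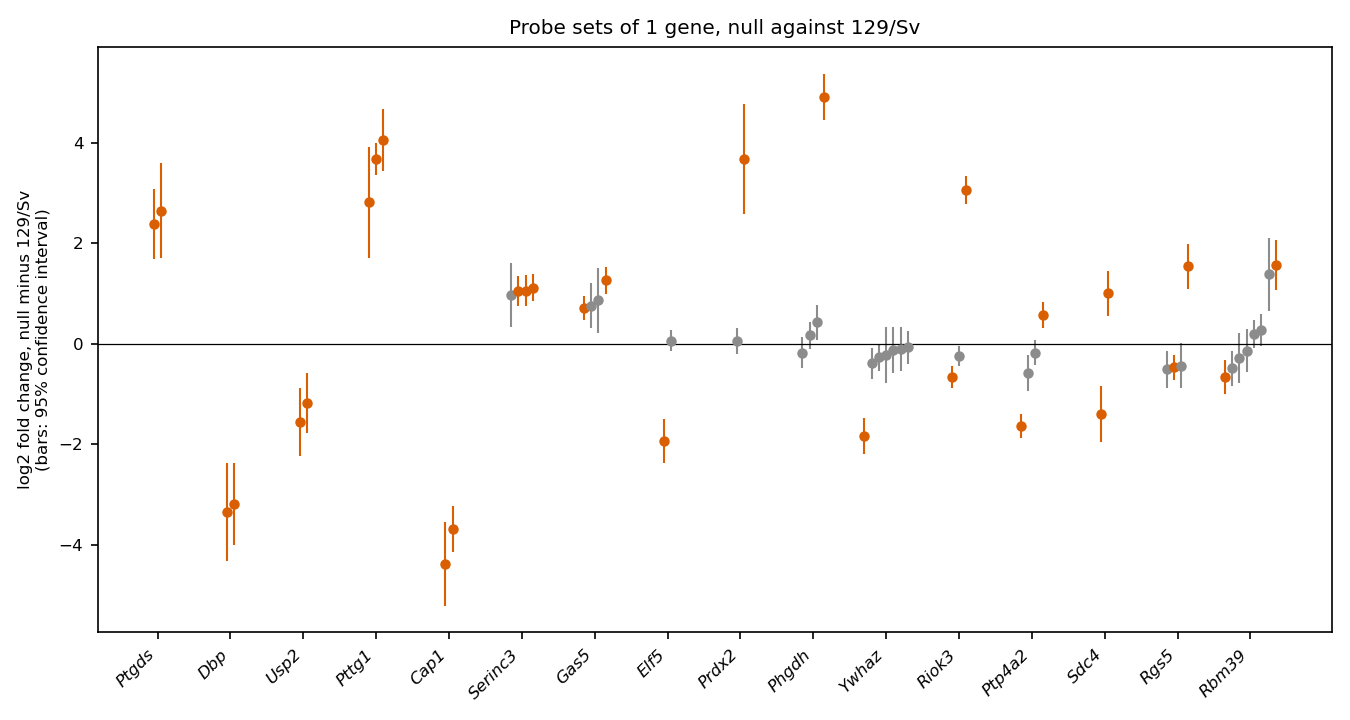
Log2 fold change of null over 129/Sv (points) with 95% confidence intervals (bars) for every tested probe set of 16 genes, called probe sets in orange and others in grey. The points of Ptgds, Dbp, Usp2, Pttg1 and Cap1 lie on 1 side of 0 and are all orange; Riok3, Ptp4a2, Sdc4, Rgs5 and Rbm39 have orange points on both sides.

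Of 27 measured immediate early genes, which are switched on within minutes of a stimulus, 3 rose, none fell and 23 had positive values, with a list median of 0.34, against 1.80% rising and 51.0% positive among all genes measured. Btg2, an antiproliferative gene, read 3222 and 2516 in 129/Sv and 4612, 7648 and 5209 in null glands (0.99, SE 0.193, adjusted p = 0.0139). Jun, a subunit of AP-1, rose by 0.92 in 1 of 2 probe sets (adjusted p = 0.036), but was not called with the replicate block. Null array 2 was the highest of the 5 arrays for both genes, and a second Btg2 probe set gave 0.98.

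The same array stood apart for genes that were not called. Fos read 636.9 and 1229 on the 129/Sv arrays and 1123, 8513 and 1037 on the null arrays, and Egr1, a zinc finger factor, 1694 and 1523 in 129/Sv and 1777, 9407 and 1839 in null glands (adjusted p = 0.5 and 0.495). Null array 2 was several-fold above both other null arrays in each. Without that array the list median was 0.20, with 20 genes positive and 1 called. Dusp14, a MAP kinase phosphatase, was called at 0.57 (adjusted p = 0.0436), but not with the replicate block. Dusp14 was no longer called without any 1 of 129/Sv arrays 1 and 2, B6 arrays 3 and 4 and null arrays 2 and 3 (adjusted p from 0.0563 to 0.257), nor with quantile normalization, with equal array medians, with no filter or without the trend; over 22 alternatives adjusted p was 0.0288 to 0.257. The Btg2 probe set at 0.99 was no longer called without 129/Sv array 2 (adjusted p = 0.221), nor without the trend; over 23 alternatives adjusted p was 0.00889 to 0.221. The Btg2 probe set at 0.98 was no longer called without any 1 of 129/Sv arrays 1 and 2, B6 arrays 2 and 3 and null arrays 2 and 3 (adjusted p from 0.0572 to 0.288), nor with quantile normalization, with equal array medians, with no filter, with the stricter filter or without the trend; over 22 alternatives adjusted p was 0.0275 to 0.288. Jun was no longer called without any 1 of 129/Sv arrays 1 and 2 and null arrays 2 and 3 (adjusted p from 0.0635 to 0.28), nor with no filter, with its probe sets averaged or without the trend; over 23 alternatives adjusted p was 0.0203 to 0.28.

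Of 28 measured interferon-stimulated genes 2 rose, none fell and 24 were positive, with a median of 0.41, where 1.80% of all genes measured rose and 51.0% were positive. Oas1a, which makes 2-5A to activate RNase L, read 211.6 and 259.1 in 129/Sv, 984.1, 832.4 and 553.3 in null and 668.9, 702.6, 706 and 571.5 in B6 glands (1.65 over 129/Sv, SE 0.292, adjusted p = 0.00736; 0.21 against B6). Isg20, an exonuclease, rose by 0.82 (adjusted p = 0.04), but was not called with the replicate block. For Oas1a the null arrays lay above both 129/Sv arrays and overlapped the B6 arrays. The median of the list was -0.03 for null against B6. Oas1a was no longer called without 129/Sv array 1 (adjusted p = 0.0625) or null array 1 (0.0542); over 22 alternatives adjusted p was 0.00445 to 0.0625. Isg20 was no longer called without any 1 of 129/Sv array 2, B6 arrays 2 and 3 and null arrays 1, 2 and 3 (adjusted p from 0.0505 to 0.419), nor with equal array medians or with no filter; over 21 alternatives adjusted p was 0.0223 to 0.419.

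The promoter of Oas1a held the interferon response element, searched on both strands as GAAA, any 2 bases, then GAAA, and present in 3.44% of RefSeq windows. Its 2 matches overlap and are in capitals, in chr5:120907476-120907775 (GRCm38.p6, minus strand). No window of Isg20 held a match.
Oas1a: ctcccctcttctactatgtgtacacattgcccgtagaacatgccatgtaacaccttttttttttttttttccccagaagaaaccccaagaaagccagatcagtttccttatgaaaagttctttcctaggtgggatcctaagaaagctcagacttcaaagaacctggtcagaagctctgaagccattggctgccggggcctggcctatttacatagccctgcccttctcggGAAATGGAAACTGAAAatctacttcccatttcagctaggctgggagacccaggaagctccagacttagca

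Of 47 measured cytoplasmic ribosomal protein genes 5 rose and none fell, where 1.80% of all genes measured rose, and the list median was 0.04. Rplp0, of the ribosomal stalk, read 58318 and 52064 in 129/Sv and 78406, 86545 and 92742 in null glands (0.64, adjusted p = 0.00151), and the difference from B6 was -0.09. Rps27 read 572.6 and 566.5 in 129/Sv and 1712, 1454 and 2112 in null glands, and was also above B6 (1.58 and 0.84, adjusted p = 0.00187 and 0.0453). Rps6 rose by 1.57 (adjusted p = 6.14e-05). Rpl22 and Rpl37a rose in 1 probe set each, by 1.09 and 1.98, while their other probe sets gave -0.04 for Rpl22 and 0.07 and 0.02 for Rpl37a. Ribosomal protein genes have many processed pseudogenes, and probe sets may read these too. Rpl22 was no longer called without 129/Sv array 2 (adjusted p = 0.223) or null array 2 (0.0611), nor with its probe sets averaged or without the trend; over 23 alternatives adjusted p was 0.000739 to 0.223. Rpl37a was no longer called without any 1 of 129/Sv arrays 1 and 2, B6 array 3 and null arrays 1, 2 and 3 (adjusted p from 0.059 to 0.215), nor with quantile normalization, with no filter, with the stricter filter, with its probe sets averaged or without the trend; over 21 alternatives adjusted p was 7.25e-05 to 0.215.

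Respiratory chain genes of the mitochondrion showed 2 rises among 76 measured (Ndufs5 and Ndufa12, both of complex I) with a median of 0.00, and endoplasmic reticulum folding genes 2 among 64 (Erp29 and Edem2). Both counts are near the 2.6% of all genes measured that were called in either direction. Ndufa12 rose by 0.84 in 1 of 3 probe sets (adjusted p = 0.00106), the others giving 0.41 and -0.12, and was not called with its probe sets averaged. Edem2 was no longer called without any 1 of 129/Sv arrays 1 and 2, B6 arrays 2 and 3 and null arrays 1, 2 and 3 (adjusted p from 0.0503 to 0.343), nor with equal array medians, with no filter or without the trend; over 23 alternatives adjusted p was 0.0205 to 0.343. Erp29 was no longer called without 129/Sv array 2 (adjusted p = 0.0729); over 22 alternatives adjusted p was 0.00226 to 0.0729. In the extracellular matrix list of 38 measured genes, Lox, a collagen cross-linking oxidase, rose by 0.74 in 1 of 2 probe sets and Fbln1, a matrix glycoprotein, fell by 0.85 (adjusted p = 0.0251 and 0.0442). With the replicate block Lox was not called. Of 26 pathway lists 6 held no called gene: other P450s and their partners, sulfotransferases and glucuronosyltransferases, kallikreins, water and ion transport, steroid metabolism, and antigen presentation. Their medians ran from -0.27 to 0.13. Aqp5, the water channel of serous cells, read 23597 and 22669 in 129/Sv and 22979.5, 28079.5 and 24767 in null glands (0.12, 95% confidence interval -0.09 to 0.34), and Cyb5a, an electron donor to P450s, -0.06 (95% confidence interval -0.33 to 0.20). Lox was no longer called without any 1 of 129/Sv array 2 and null arrays 1, 2 and 3 (adjusted p from 0.0635 to 0.372), nor without the trend; over 23 alternatives adjusted p was 0.0106 to 0.372. Fbln1 was no longer called without any 1 of 129/Sv arrays 1 and 2 and null arrays 1, 2 and 3 (adjusted p from 0.1 to 0.38), nor with no filter, with the stricter filter or without the trend; over 22 alternatives adjusted p was 0.0139 to 0.38.

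**Figure D4:**
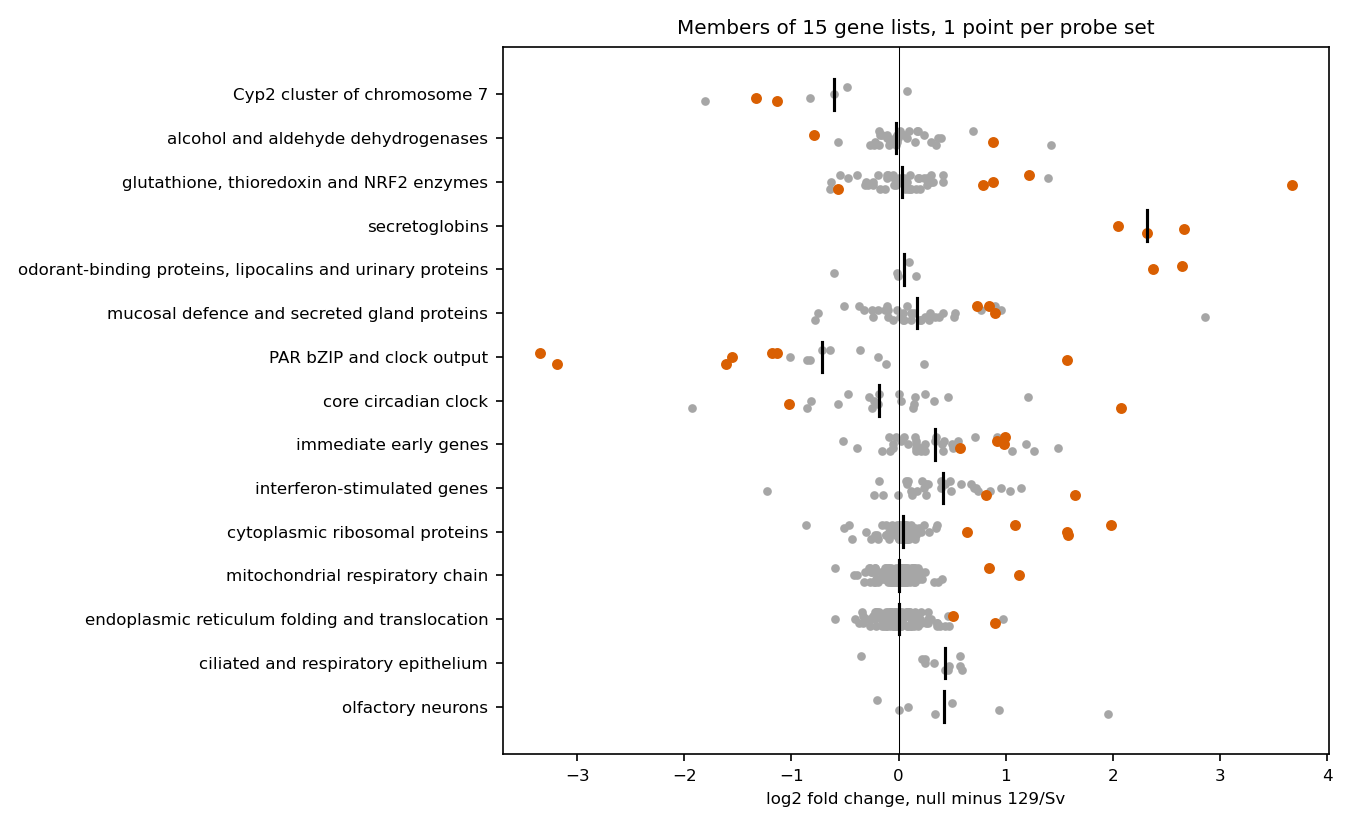
Log2 fold change of null over 129/Sv (x axis) for the probe sets of 15 gene lists (rows), called probe sets in orange, others in grey, with a black line at the list median over genes. All 3 secretoglobin points are orange and lie above 2, the PAR bZIP and clock output row lies mostly below 0, and the ribosomal, respiratory chain and endoplasmic reticulum rows centre on 0.

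Of 14 cell type lists, that of the gland's secretory cells included, 3 held a called gene, 10 held none and 1 had no gene measured. Of all genes measured 2.6% were called. No gene of the ciliated epithelium list was called, but 10 of its 11 measured genes were higher on all 3 null arrays than on both 129/Sv arrays, against 16.2% of all probe sets tested. The summed signal of the list was 20701 to 23671 in 129/Sv, 19039 to 22950 in B6 and 28158 to 29202 in null glands. Dnah5, an axonemal dynein, read 1752 and 1495 in 129/Sv and 2268, 2278 and 2174 in null glands (0.47, adjusted p = 0.223), and Lrrc23, of the axonemal radial spokes, read 2304 and 1821 in 129/Sv and 3068, 2962 and 3264 in null glands (0.59, adjusted p = 0.0874). Both were called against B6 (0.80 and 0.68, adjusted p = 0.00598 and 0.0153). The part of ciliated cells in the other differences was not tested.

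The olfactory neuron list, 6 genes measured, summed to 2543 to 3204 in 129/Sv and 3104 to 6273 in null glands, the highest on null array 3. Igha, the heavy chain of the IgA made by gland plasma cells, gave -0.10 (adjusted p = 0.914). Of 12 measured macrophage and neutrophil genes 1 was called, where 2.6% of all genes measured were called. This was C1qb, a complement subunit, which rose by 0.84 in 1 of 3 probe sets (adjusted p = 0.0143). The list it belongs to summed to 9883 to 10182 in 129/Sv, 12613 to 13277 in B6 and 10839 to 12538 in null glands. C1qb was no longer called without 129/Sv array 1 (adjusted p = 0.172) or null array 1 (0.0503) or null array 3 (0.0628), nor with its probe sets averaged; over 22 alternatives adjusted p was 0.00682 to 0.172.

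The share of probe sets called ran from 0.256% to 4.26% over the 20 chromosomes with at least 100 tested. On chromosome 4, 31 of 728 tested probe sets were called (4.26%), among them Cap1, Smpdl3b, Alad, Ndufs5, Rps6 and Ptp4a2. Chromosomes 15, 8 and 2 followed with 3.49%, 3.41% and 3.07%. On chromosome 16 only 1 of 390 was called (0.256%) and on the X chromosome 1 of 347 (0.288%). Chromosome 7, which carries Cyp2g1, had 11 of 753 called (1.46%), while B6 against 129/Sv gave 57 there (7.57%). Between B6 and 129/Sv the share was 6.46% on chromosome 4, 1.28% on chromosome 16 and 2.59% on the X chromosome. The highest share in that comparison was on chromosome 18 (8.71%). The chromosome counts cover only probe sets with 1 symbol, so the joint Cyp2a4/Cyp2a5 probe set is left out. Of all 11603 tested probe sets with 1 symbol, 150 were called higher and 71 lower. Probe sets of 1 gene and neighbouring genes are not independent, and the spread was not tested.

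**Figure D5:**
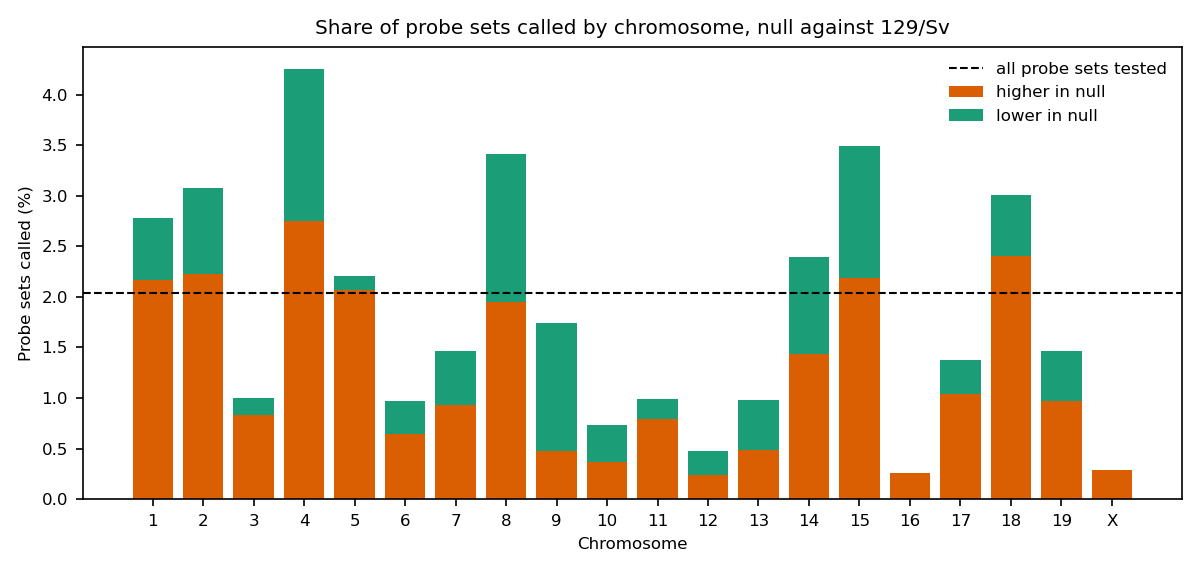
Percentage of tested probe sets called between null and 129/Sv glands on each chromosome (bars, higher in null in orange and lower in green), with the share over all probe sets tested as a dashed line at 2.04%. Chromosome 4 has the tallest bar and chromosomes 16 and X the shortest.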

How the data were processed

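Total RNA of lateral nasal glands, pooled from 10 mice per array, was hybridised to Affymetrix arrays, per the labels' protocols. The deposited values are intensity signals per probe set on a linear scale, and the submitters' processing notes name MAS5 (version and settings not stated there). Whether pools of a group shared animals is not stated by the labels, so p-values measure the spread between these pools.

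Of 22690 probe sets 64 controls were left out. Probe sets above the array median on at least 2 of the 9 arrays were kept (12575), and log2(signal + 16) was fitted with group means in limma 3.58.1 (R 4.3.3; eBayes with trend, 6 residual degrees of freedom), all 9 arrays sharing the estimate of the spread. P-values were adjusted by Benjamini-Hochberg over all probe sets tested. Calls are at adjusted p below 0.05. The scripts were tested on simulated data.

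Gene symbols came from the platform annotation (20380 probe sets with 1 symbol, 691 with several, 1555 with none). The RefSeq table (GRCm38.p6) served for chromosomes and gene neighbours, and RefSeq promoter windows for sequences. A list's level for a gene is that of its probe set with the highest mean signal, except that a gene counts as called if any of its probe sets is.

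The genes, lists and tests were chosen with earlier results of these data known. Named genes are Cyp2g1, Cyp2a4/Cyp2a5, the 16 largest called rises and 16 largest called falls with 1 symbol, the 10 called genes of highest signal, and up to 4 called genes of each list or, where fewer than 2 were called, also its 2 of highest signal. Bhlhe40, Car6, Cyp2f2, Dnah5, Egr1, Fos, Gas5, Hlf, Hspb8, Lbp, Lcn3, Lrrc23, Obp1a, Omp, Per2, Ramp1, Rbm39, Rpl37a, S100a10 and the probe sets with no symbol were chosen after their values were seen. Alternatives covered scaling, pseudocount, filter, probe sets per gene, trend, array weights, a replicate block, a fit of 5 arrays, thresholds and leaving out each array.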

Additional observations from a re-analysis of the deposited data

Results flagged for a closer look

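Among 170 probe sets named or listed, 8 had 1 of the 4 B6 arrays standing apart from the other 3 by more than the 95% critical value of Dixon's gap test; chance alone flags about 1 group in 20. The groups of 2 and 3 arrays were too small for this check. On B6 array 2, Cdkn1a read 199.6 against 568.1 to 603.0 on the others, Asns 51499.8 against 41845.3 to 42405.5, and Hlf 465.7 against 662.4 to 704.0. On B6 array 4, Ptp4a2 read 4617.1 against 5027.2 to 5058.3, Btg2 3567.2 against 4438.2 to 4559.1, Rbm39 848.0 against 1042.9 to 1063.8, and Tef 629.9 against 422.7 to 447.6. On B6 array 1, Scd2 read 10798.5 against 14261.8 to 14547.2.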

How the results depend on the processing

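Of 71 named probe sets called, 30 were called in every one of 23 other settings that gave a value, and 33 in all 9 fits leaving out an array; of 45 uncalled, 39 stayed uncalled. The 256 calls became 165 with 1 probe set per gene, 140 with the probe sets of each gene averaged, 163 without the probe set types open to several transcripts, 166 without the trend, 125 at adjusted p below 0.01 and 128 with at least a 2-fold change, and 128 to 326 on leaving out an array. The first 3 of these tested fewer features, and the last 2 thresholds are stricter by construction; for the trend the cause was not tested. Without those types 47 of the 71 named probe sets were left, all still called; without the trend 44 of the 71 were called, and the number was 42 to 71 on leaving out an array. Called list genes fell from 44 to 26 without the trend and were 25 to 54 on leaving out an array. With probe sets averaged by gene, 5 genes with opposed probe sets reversed by construction: Rgs5 to 0.029, Ptp4a2 to -0.458, Rbm39 to 0.229, Riok3 to 0.718 and Sdc4 to -0.204.

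Deviations of same-numbered null and 129/Sv arrays from their group means correlated at -0.015 and -0.075. With 2 arrays in the 129/Sv group their deviations mirror each other. This check therefore cannot decide whether replicate numbers pair the arrays. With the replicate block 281 probe sets were called, 217 of them shared with the unblocked fit. The number of arrays, 2 in the 129/Sv group, limits the precision of every difference.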
